A study of Arabidopsis thaliana with 12 samples.

Results

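The glutathione S-transferase genes of Arabidopsis thaliana were compared across seedlings that differed in cryptochrome genotype and in treatment with a growth-altering chemical. Members were the loci whose gene symbol or synonym was GSTU (tau class), GSTF (phi), GSTZ (zeta), GSTT (theta) or GSTL (lambda) with a number, without the flavonoid carrier gene TT19. The rule gave 47 genes with a probe among the 25410 genes with a probe on the array, namely 27 tau, 12 phi, 2 zeta, 3 theta and 3 lambda genes. A further member of the gene table, GSTU21, had no matched probe and is not analysed here. Of the 47 genes, 44 passed the filter on dim probes and stood among the 20487 genes tested. The 3 others were GSTF11 and GSTU15, which were well above background on 0 of 12 arrays, and GSTZ2, which was so on 3 of 12.

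Whole seedlings were sampled after 4 days under continuous blue light (5 µmol m-2 s-1), which followed 3 days of cold and darkness on the plate. The 4 groups of 3 arrays were the cryptochrome double mutant cry1cry2 on 15 µM 3-bromo-7-nitroindazole (3B7N), cry1cry2 on the solvent dimethyl sulfoxide (DMSO), wild type Col-0 on 15 µM 3B7N and wild type Col-0 on DMSO. The chemical or the solvent was in the agar medium. The study asked which transcripts go with chemically altered hypocotyl growth in blue light, with DMSO as its control. The labels do not say whether the 3 samples of a group were grown separately, so the p-values reflect the spread between these samples alone, which may be technical. Whole seedlings were used, so more RNA per cell and more cells of an expressing type cannot be told apart.

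Glutathione S-transferases join the tripeptide glutathione to reactive, electrophilic compounds, and the products are pumped into the vacuole by ABCC transporters. The tau and phi classes are large in plants and hold most of the genes that respond to herbicide safeners, hormones and stress, while theta and zeta enzymes also occur in animals. The zeta enzyme acts in the breakdown of tyrosine as maleylacetoacetate isomerase, theta enzymes reduce organic hydroperoxides, and lambda enzymes carry a cysteine in place of the catalytic serine and act as thiol transferases. CRY1 and CRY2 are the blue-light receptors that hold hypocotyls short, and 3B7N is known as an inhibitor of nitric oxide synthases in mammals.

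Values below are relative log2 signals, meaning the log2 of an array's processed signal minus the 75th percentile of that array. They compare arrays for 1 gene and do not rank genes against each other. The 75th percentile ran from 882.6 to 6794 intensity units, between 64.4% and 81.2% of probes were well above background, and across genes the correlation of 2 arrays from the same group was 0.979 to 0.993. The lowest signal flagged well above background lay between -9.18 and -5.47 on this scale, depending on the array. The labels held for the deleted receptors: CRY1 was lower in cry1cry2 than in wild type by a log2 difference of -12.25 on DMSO and -11.55 on 3B7N, and CRY2 by -10.69 on DMSO and at least 1400-fold on 3B7N. The 12 arrays lay on 3 slides. Slide 1 held the wild type on DMSO and 3B7N array 1 of wild type, slide 2 held 3B7N arrays 2 and 3 of wild type with DMSO arrays 1 and 2 of cry1cry2, and slide 3 held DMSO array 3 and all 3B7N arrays of cry1cry2. Slide values are therefore given where they change a call of a member, and no slide held both groups of a genotype comparison. Within slides 1 and 3 a fit sets 1 array of one group against 3 of the other, with the lone array assumed to vary like the rest, so a lost call there also reflects the fewer arrays.

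3B7N changed 11 of the 44 tested GST genes in wild type: 7 were higher and 4 lower than on DMSO, with an adjusted p under 0.05 (limma, Benjamini-Hochberg over all 20487 genes) and a log2 difference of 1 or more in size. Among all genes tested, 15% passed these thresholds, 5.89% as higher and 9.09% as lower. The higher genes were 5 tau (GSTU3, GSTU4, GSTU12, GSTU2 and GSTU11) and 2 phi genes (GSTF3 and GSTF6), and the lower were 2 tau (GSTU23 and GSTU28), 1 phi (GSTF14) and 1 lambda gene (GSTL2). In cry1cry2, 3B7N raised GSTU3, GSTF6 and GSTF13 and lowered 0 of 44 members, beside 3.74% of all genes called (2.11% higher and 1.63% lower). GSTU3 and GSTF6 were the genes higher with 3B7N in both genotypes. The share of all genes higher in both was not counted, so this overlap is not read as a trait of the family. These contrasts share no array, but GSTU3 passed the filter on dim probes only through the 2 groups on 3B7N, where it was brighter. The count of 3 in cry1cry2 was 1 without 3B7N array 1 and 4 without 3B7N array 2.

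The members moved in both directions: 27 of 44 differences with 3B7N were above 0 in cry1cry2 and 22 of 44 in wild type. Over all genes tested, 11274 of 20487 were above 0 in cry1cry2 and 9513 of 20487 in wild type. The members' median log2 difference with 3B7N was 0.18 in cry1cry2 and 0.02 in wild type, beside medians of 0.04 and -0.06 over all genes tested in the same comparisons. The sign of these family medians depended on the processing: that in cry1cry2 was -0.03 with normexp background correction, and that in wild type was -0.02 with quantile scaling and -0.01 with slide as a block. By class, the tau median was 0.26 in cry1cry2 and -0.09 in wild type, the phi median 0.23 and 0.44, the theta median -0.11 and 0.31, and the lambda median -0.10 and -0.61. The groups did not overlap for 17 members in cry1cry2 and 27 in wild type, beside 28.7% and 49.9% of all genes. Unadjusted p-values under 0.05 were found for 18 members in cry1cry2 and 26 in wild type, which is 40.9% and 59.1% of them, beside 22.3% and 49.3% of all genes.

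**Figure D1:**
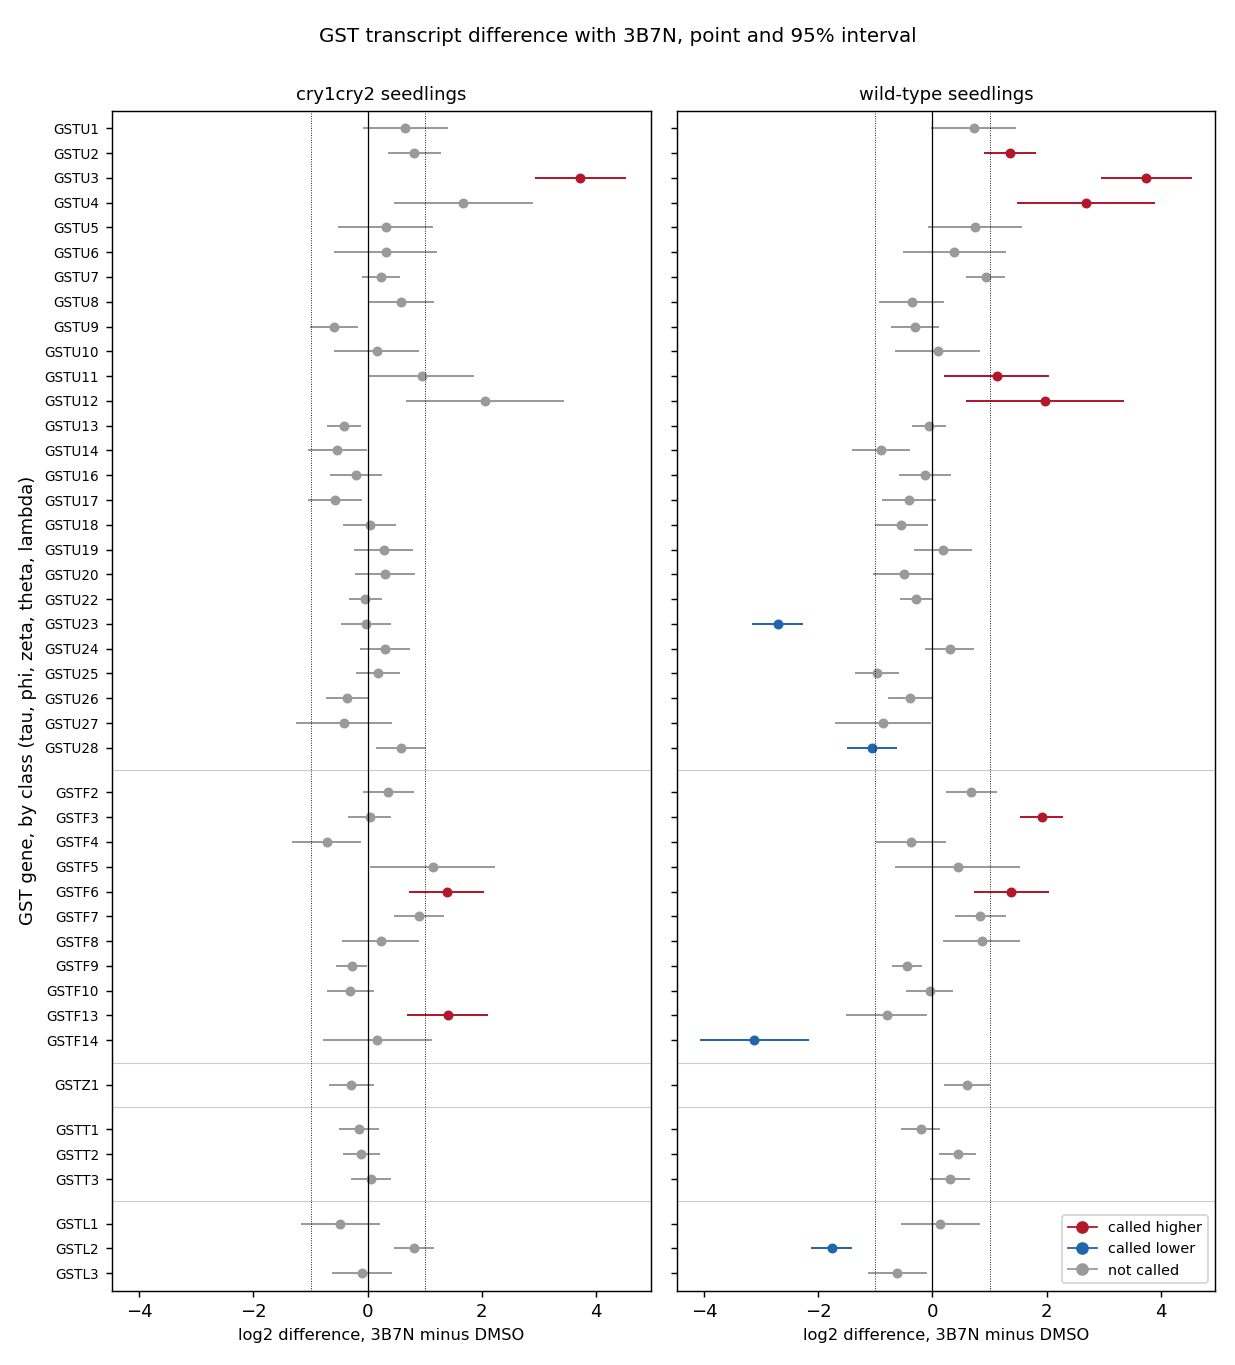
Log2 difference of each tested GST gene, 3B7N minus DMSO, in cry1cry2 (left) and wild type (right), with points for the fitted difference and bars for its 95% interval. Rows run by class from tau to lambda, dotted lines mark a difference of 1, and colours mark the calls. GSTU3 stands at 3.72 in cry1cry2 and 3.75 in wild type, fitted against DMSO signals near the background, while GSTU23, GSTF14 and GSTL2 lie far below 0 in wild type and not in cry1cry2.

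The tau gene GSTU3 (AT2G29470) was called higher with 3B7N in both genotypes. Its signals were -4.76, -4.41 and -3.97 in cry1cry2 on 3B7N, against -7.67, -8.88 and -7.77 in cry1cry2 on DMSO. In wild type they were -4.86, -4.71 and -5.86 on 3B7N and -8.86, -8.83 and -8.995 on DMSO. The 3B7N arrays lay above all DMSO arrays in either genotype, and the DMSO signals were near the background: the probe was well above it on 1 of 3 DMSO arrays of cry1cry2 and on 0 of 3 of wild type. The sizes fitted against these signals are therefore not ranked against those of other genes. The fitted difference was 3.72 ± 0.36 in cry1cry2 (SE, n = 3 arrays a group, limma adjusted p = 9.1e-05). In wild type GSTU3 was at least 3.63-fold higher on 3B7N, and the fitted difference was 3.75 ± 0.36 (limma adjusted p = 1.98e-05). With normexp, which adds an offset to dim signals, the differences were 0.91 in cry1cry2 and 1.02 in wild type and neither was called.

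GSTU4 (AT2G29460) and GSTU2 (AT2G29480), the neighbours of GSTU3 on chromosome 2, also rose with 3B7N in wild type. GSTU4 signals were -2.31, -2.62 and -1.16 in cry1cry2 on 3B7N, -3.82, -4.30 and -3.01 in cry1cry2 on DMSO, -2.28, -3.21 and -3.76 in 3B7N-treated wild type, and -6.85, -5.41 and -5.07 in wild type on DMSO. The wild-type DMSO arrays were the lowest of the 12, with 2 of 3 of them well above background. In wild type the difference was 2.69 ± 0.55 (limma adjusted p = 0.00267). In cry1cry2 it was 1.68 (95% interval 0.48 to 2.87, limma adjusted p = 0.0876), called with array weights (1.51, adjusted p = 0.0371). GSTU2 signals were -0.57, -0.79 and -0.28 in cry1cry2 on 3B7N, -1.44, -1.55 and -1.10 in cry1cry2 on DMSO, -1.14, -1.78 and -1.59 in 3B7N-treated wild type, and -3.003, -2.93 and -2.67 in wild type on DMSO. Here the cry1cry2 DMSO and wild-type 3B7N arrays overlapped. The 3B7N difference was 1.37 ± 0.20 in wild type (limma adjusted p = 0.00037). In cry1cry2 it was 0.82 (limma adjusted p = 0.03), which is under the fold threshold.

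GSTU12 (AT1G69920) and GSTU11 (AT1G69930) are neighbours on chromosome 1, and both were called higher with 3B7N in wild type, with a wide spread between arrays. GSTU12 signals were -2.09, -3.10 and -1.54 in cry1cry2 on 3B7N, -3.40, -5.78 and -3.70 in cry1cry2 on DMSO, -3.46, -4.34 and -4.77 in 3B7N-treated wild type, and -6.99, -5.63 and -5.87 in wild type on DMSO. Array 2 of cry1cry2 on DMSO stood far below the other arrays of that group for this gene and lay among the wild-type DMSO arrays, of which 2 of 3 were well above background. Its within-group standard deviation of 0.90 was the highest of the 44 members. The difference with 3B7N was 2.05 ± 0.63 in cry1cry2 (limma adjusted p = 0.0704) and 1.97 ± 0.63 in wild type (limma adjusted p = 0.0267). The wild-type call ended without 3B7N array 1 (1.61, adjusted p = 0.0916), 3B7N array 2 (2.05, 0.0517) or DMSO array 1 (1.56, 0.0944). In cry1cry2 the difference passed the test only without 3B7N array 2 (2.48, adjusted p = 0.048).

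For GSTU11 the signals were -1.49, -2.41 and -1.28 in cry1cry2 on 3B7N, -2.16, -3.56 and -2.29 in cry1cry2 on DMSO, -3.26, -3.18 and -3.95 in 3B7N-treated wild type, and -5.07, -4.60 and -4.10 in wild type on DMSO. The same cry1cry2 DMSO array 2 was the lowest of its group. The wild-type difference of 1.13 ± 0.41 was close to the threshold (limma adjusted p = 0.048) and was lost in 11 of 18 alternatives, among them normexp (0.85, adjusted p = 0.0543) and, with 1 3B7N array, the fit within slide 1 (1.33, 0.0565). It was also lost without DMSO array 1 (0.89, adjusted p = 0.149), DMSO array 2 (1.12, 0.0991), 3B7N array 1 (1.02, 0.116) or 3B7N array 2 (0.98, 0.132). The cry1cry2 difference was 0.95 (95% interval 0.04 to 1.85, limma adjusted p = 0.202).

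GSTU23 (AT1G78320) and GSTU28 (AT1G53680) were the tau genes that fell with 3B7N in wild type. GSTU23 signals were -5.64, -5.36 and -5.48 in cry1cry2 on 3B7N, -5.20, -5.98 and -5.22 in cry1cry2 on DMSO, -4.93, -5.03 and -4.78 in 3B7N-treated wild type, and -2.28, -2.22 and -2.09 in wild type on DMSO. The wild-type DMSO arrays stood above the other 9 arrays by a gap much wider than the spread in any group. The difference with 3B7N was -2.71 ± 0.19 in wild type (limma adjusted p = 3.32e-06) and -2.73 within slide 1. In cry1cry2 it was -0.03 (95% interval -0.45 to 0.40). GSTU28 signals were -3.66, -3.08 and -3.10 in cry1cry2 on 3B7N, -4.02, -3.81 and -3.76 in cry1cry2 on DMSO, -2.85, -3.37 and -2.83 in 3B7N-treated wild type, and -1.98, -1.85 and -2.06 in wild type on DMSO. Its wild-type difference of -1.05 ± 0.19 (limma adjusted p = 0.00139) stood near the fold threshold and missed it in 8 of 18 alternatives, at -0.89 within slide 1, at -0.88 without 3B7N array 2 and at -0.997 without DMSO array 2. In cry1cry2 the difference was 0.58 (limma adjusted p = 0.0899).

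**Figure D2:**
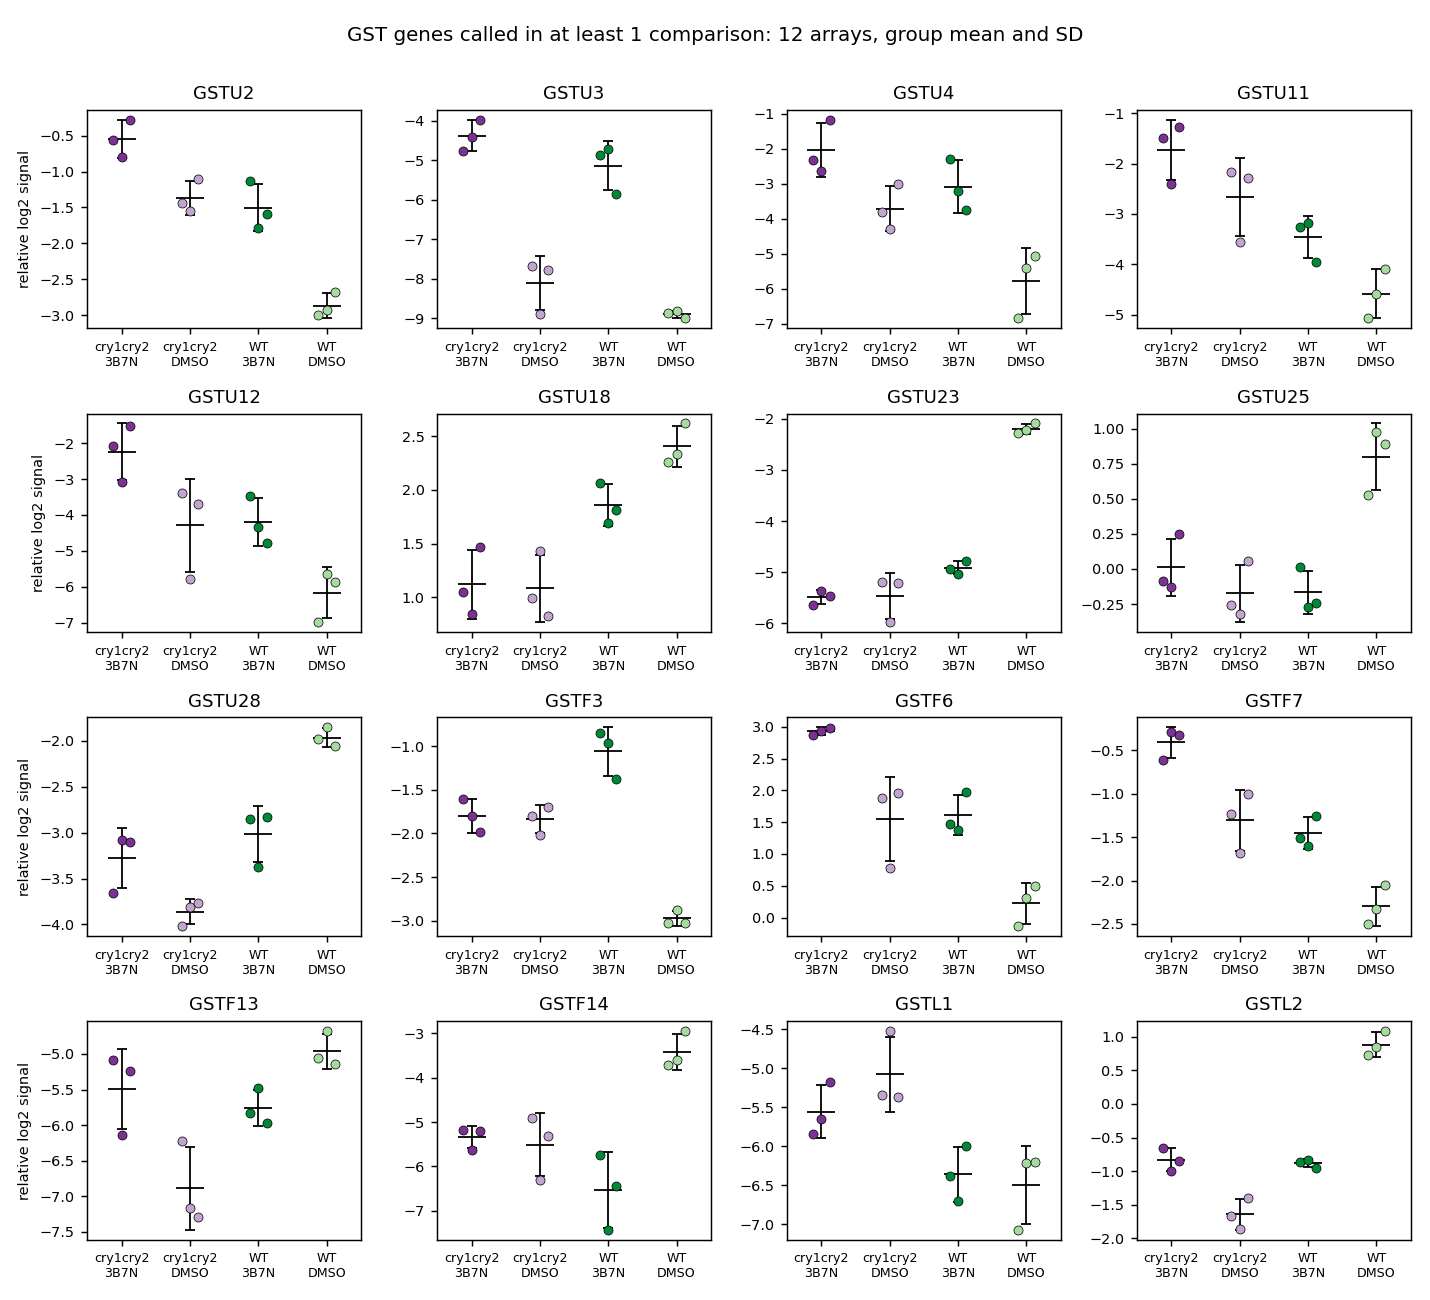
Relative log2 signal (log2 processed signal minus the array's 75th percentile) on the 12 arrays for the 16 GST genes called in at least 1 comparison, the interaction included. Points are arrays, horizontal bars the group means and error bars the SD of 3 arrays, with cry1cry2 left of wild type and 3B7N left of DMSO. The wild-type DMSO arrays all lie below the 9 others for GSTU2, GSTU4, GSTU11, GSTF3, GSTF6 and GSTF7. They all lie above the 9 others for GSTU18, GSTU23, GSTU25, GSTU28, GSTF14 and GSTL2.

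The phi genes GSTF3 (AT2G02930) and GSTF6 (AT1G02930, an enzyme of camalexin synthesis) rose with 3B7N in wild type. GSTF3 signals were -1.60, -1.80 and -1.99 in cry1cry2 on 3B7N, -1.80, -2.01 and -1.69 in cry1cry2 on DMSO, -0.84, -0.96 and -1.37 in 3B7N-treated wild type, and -3.03, -2.88 and -3.02 in wild type on DMSO. In wild type the treated arrays were the highest of the 12 and the untreated arrays the lowest, while both cry1cry2 groups lay between them. The difference with 3B7N was 1.92 ± 0.16 in wild type (limma adjusted p = 1.11e-05), and this call was kept in all 18 alternatives. In cry1cry2 it was 0.04 (95% interval -0.32 to 0.40). GSTF2, its close paralog, which binds small ligands such as flavonoids and camalexin, differed in wild type by 0.68 (limma adjusted p = 0.0175), and signal shared between these paralogs was not tested.

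GSTF6 signals were 2.87, 2.94 and 2.99 in cry1cry2 on 3B7N, 1.89, 0.78 and 1.97 in cry1cry2 on DMSO, 1.48, 1.38 and 1.97 in 3B7N-treated wild type, and -0.13, 0.31 and 0.50 in wild type on DMSO. The cry1cry2 3B7N arrays were the highest and the wild-type DMSO arrays the lowest, and the other 2 groups overlapped. The rise with 3B7N was 1.39 ± 0.29 in cry1cry2 (limma adjusted p = 0.0152) and 1.38 ± 0.29 in wild type (limma adjusted p = 0.0034). A second probe of the gene gave 1.73 in cry1cry2 and 1.83 in wild type. In cry1cry2 the difference was 0.97 within slide 3, under the fold threshold with 1 DMSO array (adjusted p = 0.105), and the call was lost without 3B7N array 1 (1.42, adjusted p = 0.0554). GSTF7, its neighbour and near-identical paralog, differed by 0.90 in cry1cry2 (limma adjusted p = 0.0167) and 0.84 in wild type (limma adjusted p = 0.00533), under the fold threshold. Without cry1cry2 DMSO array 3, GSTF7 passed it in cry1cry2 (1.05, adjusted p = 0.0172). Probes of these paralogs may share signal.

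GSTF14 (AT1G49860) fell and GSTF13 (AT3G62760) rose, each in a single genotype. GSTF14 signals were -5.18, -5.64 and -5.20 in cry1cry2 on 3B7N, -4.91, -6.30 and -5.32 in cry1cry2 on DMSO, -5.74, -7.43 and -6.44 in 3B7N-treated wild type, and -3.70, -3.61 and -2.95 in wild type on DMSO. The wild-type DMSO arrays were the highest, and 2 of 3 wild-type 3B7N arrays were well above background. The difference was -3.12 ± 0.43 in wild type (limma adjusted p = 0.00023), -2.32 within slide 1, and -1.16 with normexp, where the call was lost (adjusted p = 0.0822). In cry1cry2 it was 0.17 (95% interval -0.76 to 1.11).

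GSTF13 signals were -5.09, -6.14 and -5.25 in cry1cry2 on 3B7N, -6.22, -7.16 and -7.29 in cry1cry2 on DMSO, -5.82, -5.48 and -5.98 in 3B7N-treated wild type, and -5.06, -4.68 and -5.14 in wild type on DMSO. In cry1cry2 the 3B7N arrays lay above the DMSO arrays, but 3B7N array 2 nearly touched DMSO array 1. The cry1cry2 difference of 1.40 ± 0.32 (limma adjusted p = 0.0213) was -0.06 with normexp. Within slide 3, with 1 DMSO array, it was 1.80 and not called (adjusted p = 0.166). The call was also lost without 3B7N array 1 (1.20, adjusted p = 0.106), 3B7N array 3 (1.28, 0.0707), DMSO array 2 (1.26, 0.0758) or DMSO array 3 (1.20, 0.0824). In wild type the difference was -0.80 (limma adjusted p = 0.0644).

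GSTL2 (AT3G55040), a lambda enzyme sent to plastids, fell with 3B7N in wild type. Its signals were -0.65, -0.99 and -0.85 in cry1cry2 on 3B7N, -1.67, -1.86 and -1.40 in cry1cry2 on DMSO, -0.86, -0.83 and -0.95 in 3B7N-treated wild type, and 0.73, 0.84 and 1.08 in wild type on DMSO. The 3B7N groups overlapped, and the DMSO groups lay on either side of them. The difference with 3B7N was -1.77 ± 0.15 in wild type (limma adjusted p = 1.19e-05), with the call kept in all 18 alternatives. In cry1cry2 it was 0.81 ± 0.15 (limma adjusted p = 0.00927), in the opposite direction and under the fold threshold. The other lambda genes were not called with 3B7N: GSTL1 differed by -0.48 in cry1cry2 and 0.14 in wild type, and GSTL3 by -0.10 and -0.61.

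None of the theta genes and not the zeta gene GSTZ1 passed the fold threshold in any comparison. Over all genes, 3.74% (3B7N in cry1cry2) to 19% (genotypes on DMSO) were called. The absence of calls among these few genes is therefore not read as a trait of their classes. The 3 theta genes differed with 3B7N by -0.15 to 0.05 in cry1cry2 and by -0.20 to 0.44 in wild type. GSTZ1 differed by -0.29 in cry1cry2 (limma adjusted p = 0.368) and 0.61 in wild type (limma adjusted p = 0.0162). Several tau and phi genes with better-known roles also stayed uncalled with 3B7N. For GSTU24 and GSTU25, which act on the explosive TNT, the differences were 0.31 and 0.19 in cry1cry2 and 0.30 and -0.97 in wild type. GSTU25 in wild type (limma adjusted p = 0.00113) passed the fold threshold without DMSO array 1 (-1.10) or 3B7N array 1 (-1.06). GSTU19, a safener-responsive gene, differed by 0.28 in cry1cry2 (95% interval -0.22 to 0.78) and 0.19 in wild type (-0.31 to 0.68). GSTU20, whose product binds the jasmonate enzyme FIN219 in far-red light signalling, differed by 0.31 in cry1cry2 and -0.51 in wild type. GSTU17, a drought and light response gene, differed by -0.58 and -0.41, and GSTF8, a widely used stress reporter gene, by 0.23 and 0.86.

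Loss of both cryptochromes on DMSO went with 7 higher and 6 lower GST genes of 44, beside 19% of all genes called (7.64% higher and 11.4% lower). The higher genes were GSTU4 (2.07), GSTU11 (1.92), GSTU12 (1.87), GSTU2 (1.504), GSTL1 (1.42), GSTF6 (1.32) and GSTF3 (1.14), all as log2 differences of cry1cry2 minus wild type. The lower genes were GSTU23 (-3.27), GSTL2 (-2.53), GSTF14 (-2.09), GSTF13 (-1.93), GSTU28 (-1.90) and GSTU18 (-1.32). The groups did not overlap for 26 members, beside 56.1% of all genes. The median over the members was 0.32, beside 0.00 over all genes, and stayed positive in every alternative run. By class it was 0.18 for tau, 0.27 for phi, 0.50 for theta and -0.24 for lambda genes. This contrast shares the wild-type DMSO arrays with that of 3B7N in wild type, so values in one are not independent of values in the other.

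With slide as a block, which links the genotypes only through arrays of other groups, 2 higher and 3 lower members kept a call on DMSO. GSTU2 stood at 1.92 and GSTF3 at 1.40 among the higher genes, and GSTU23 at -3.42, GSTL2 at -2.62 and GSTU28 at -1.70 among the lower. The values of those that lost the call were 2.92 for GSTU4 (adjusted p = 0.0503), 2.66 for GSTU12 (0.129), 2.03 for GSTU11 (0.101), 1.53 for GSTL1 (0.0987), 0.91 for GSTF6 (0.246), -0.88 for GSTU18 (0.112), -0.99 for GSTF14 (0.349) and -1.83 for GSTF13 (0.0596). GSTU12 also lost it without cry1cry2 DMSO array 1 (1.42, adjusted p = 0.116) or array 3 (1.57, 0.103), or wild-type DMSO array 1 (1.46, 0.112). Normexp ended the calls of GSTL1 (0.45), GSTF13 (-0.57) and GSTF14 (-0.94). Calls were gained by leaving out arrays for GSTF7 (1.11 without wild-type DMSO array 3, 1.18 without cry1cry2 DMSO array 2), GSTU25 (-1.11 without wild-type DMSO array 1, -1.09 without cry1cry2 DMSO array 3) and GSTU3 (1.17 without cry1cry2 DMSO array 2). GSTU3 was well above background on 1 of 3 cry1cry2 and 0 of 3 wild-type DMSO arrays, so its genotype difference on DMSO is not read.

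GSTU18 and GSTL1 were called in this comparison alone. GSTU18 (AT1G10360) signals were 1.05, 0.84 and 1.47 in cry1cry2 on 3B7N, 1.00, 1.43 and 0.82 in cry1cry2 on DMSO, 2.07, 1.69 and 1.82 in 3B7N-treated wild type, and 2.26, 2.34 and 2.62 in wild type on DMSO. All cry1cry2 arrays lay below all wild-type arrays, and the genotype difference was -1.32 ± 0.20 on DMSO (limma adjusted p = 0.000344) and -0.74 ± 0.20 on 3B7N (limma adjusted p = 0.0235). GSTL1 (AT5G02780) signals were -5.84, -5.66 and -5.18 in cry1cry2 on 3B7N, -5.34, -4.52 and -5.37 in cry1cry2 on DMSO, -6.38, -6.70 and -5.99 in 3B7N-treated wild type, and -7.07, -6.21 and -6.20 in wild type on DMSO. They were dim, with 2 of 3 arrays well above background in each wild-type group, so GSTL1 entered the test only through the cry1cry2 groups. The cry1cry2 arrays were the higher ones on either medium, by 0.80 on 3B7N (limma adjusted p = 0.073) and 1.42 ± 0.31 on DMSO (limma adjusted p = 0.00305). Theta genes and GSTZ1 were also above their wild-type DMSO range in cry1cry2 on DMSO, under the fold threshold, at 0.74 for GSTT2 (limma adjusted p = 0.00131), 0.50 for GSTT3 (0.0187), 0.37 for GSTT1 (0.0637) and 0.94 for GSTZ1 (0.00114). Likewise GSTU19 differed by -0.97 (limma adjusted p = 0.0051), with its other probes at -1.13 (called lower) and -0.85.

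On 3B7N the genotypes differed in 4 members, all higher in cry1cry2, beside 7.28% of all genes called (4.02% higher and 3.27% lower). These were GSTU12 (1.95 ± 0.63, limma adjusted p = 0.0404), GSTU11 (1.74 ± 0.41, 0.0126), GSTF6 (1.32 ± 0.29, 0.00942) and GSTF7 (1.04 ± 0.19, 0.00454). GSTF7 (AT1G02920) signals were -0.61, -0.29 and -0.33 in cry1cry2 on 3B7N, -1.24, -1.69 and -0.998 in cry1cry2 on DMSO, -1.51, -1.61 and -1.25 in 3B7N-treated wild type, and -2.51, -2.33 and -2.06 in wild type on DMSO. As for GSTF6, the cry1cry2 3B7N arrays were the highest and the wild-type DMSO arrays the lowest. The lower members were 0 of 44 by limma. An unadjusted p under 0.05 in either direction was found for 17 members (38.6%), beside 40.2% of all genes, among them GSTF8 (-0.99, limma adjusted p = 0.0337), GSTU19 (-0.87, 0.0188) and GSTF3 (-0.74, 0.00974). A second GSTF8 probe was called lower (-1.10, limma adjusted p = 0.0166). The members' median was 0.22, beside 0.05 over all genes, and the groups did not overlap for 18 members, beside 42% of all genes. With slide as a block the count of higher members was 0, at 1.43 for GSTU12 (adjusted p = 0.742), 1.27 for GSTU11 (0.661), 0.63 for GSTF6 (0.758) and 0.55 for GSTF7 (0.647). Without wild-type 3B7N array 2 the count was 2, since GSTU12 (1.87, adjusted p = 0.101) and GSTF7 (0.97, under the fold threshold) dropped out. GSTU12 lost it too without wild-type 3B7N array 3 (1.66, 0.115) or cry1cry2 3B7N array 1 (1.88, 0.1) or array 3 (1.60, 0.129), and GSTF7 without cry1cry2 3B7N array 2 (0.985). In all, the calls were lost in 9 of 17 alternatives for GSTU12, among them quantile scaling (1.81, adjusted p = 0.0527), no filter on dim probes (0.0541) and normexp (1.22, 0.0522), and in 8 of 17 for GSTF7, among them median scaling (0.91), quantile scaling (0.97), array weights (0.96) and normexp (0.93). Without wild-type 3B7N array 1 the count was 6, since GSTU2 (1.14) and GSTF14 (1.60) joined, and GSTU2 was also called without cry1cry2 3B7N array 2 (1.08).

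**Figure D3:**
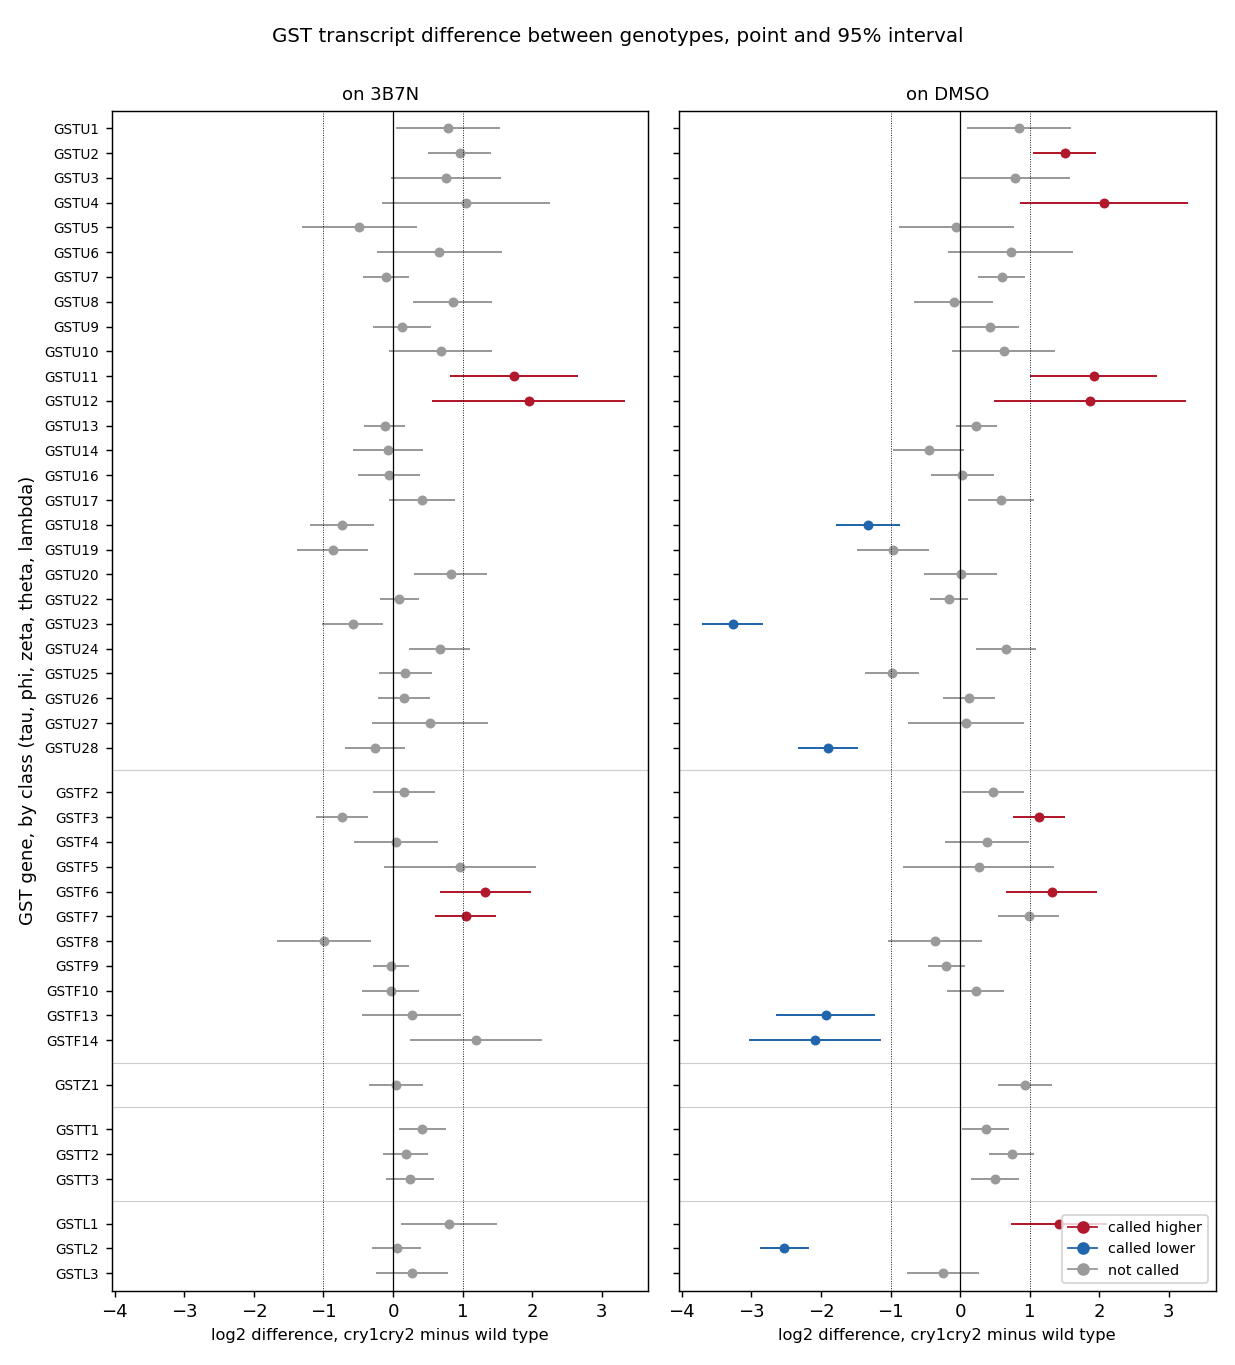
Log2 difference of each tested GST gene, cry1cry2 minus wild type, on 3B7N (left) and on DMSO (right), with points for the fitted difference and bars for its 95% interval. Rows run by class from tau to lambda, dotted lines mark a difference of 1, and colours mark the calls. On DMSO GSTU23 stands at -3.27 and GSTL2 at -2.53, and on 3B7N they stand at -0.58 and 0.05.

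The change with 3B7N differed between the genotypes for 7 of 44 members, 6 of them with the higher change in cry1cry2 and 1 with the higher change in wild type, beside 18.6% of all genes (12.7% and 5.92%). As the change in cry1cry2 minus that in wild type, the interaction was 3.29 ± 0.60 for GSTF14 (limma adjusted p = 0.00227), 2.69 ± 0.27 for GSTU23 (8.27e-05), 2.58 ± 0.22 for GSTL2 (2.93e-05), 2.20 ± 0.45 for GSTF13 (0.00418), 1.64 ± 0.27 for GSTU28 (0.00129) and 1.15 ± 0.24 for GSTU25 (0.00462). For GSTF3 it was -1.88 ± 0.23 (limma adjusted p = 0.000245). GSTU25 (AT1G17180) signals were -0.08, -0.13 and 0.25 in cry1cry2 on 3B7N, -0.26, -0.32 and 0.06 in cry1cry2 on DMSO, 0.01, -0.27 and -0.24 in 3B7N-treated wild type, and 0.53, 0.98 and 0.89 in wild type on DMSO. The wild-type DMSO arrays alone stood apart. GSTL2 and GSTF3 kept the call in all 22 alternatives. With normexp GSTF14 (0.54), GSTU23 (1.01), GSTF13 (0.04) and GSTU28 (0.95) lost it, and with slide as a block GSTF14 (2.30) and GSTU25 (0.74). For GSTF6 the interaction was 0.00 (95% interval -0.90 to 0.91), and for GSTU3 the background-level DMSO signals allow no comparison of the changes. GSTU2, uncalled at -0.55 (limma adjusted p = 0.17), was called with slide as a block (-1.17, adjusted p = 0.0405). The median over the members was 0.01, and its sign turned with the processing, to -0.24 with slide as a block.

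Neighbouring genes were looked at together, since many GST genes lie in rows of copies. Genes with at most 2 other protein-coding genes between them formed 11 such rows. In the row of 7 tau genes on chromosome 2, in the order GSTU7, GSTU6, GSTU5, GSTU4, GSTU3, GSTU2 and GSTU1, all differences with 3B7N were above 0. They were 0.24, 0.32, 0.31, 1.68, 3.72, 0.82 and 0.66 in cry1cry2 and 0.94, 0.38, 0.75, 2.69, 3.75, 1.37 and 0.72 in wild type. The middle genes GSTU4, GSTU3 and GSTU2 passed the thresholds in wild type, and GSTU3 alone did in cry1cry2. The differences of GSTU6 in both genotypes and of GSTU5 in cry1cry2 were smaller than their SE. Signal shared between the probes of these neighbours was not tested. In the row of GSTU23, GSTU22, GSTU20 and GSTU19 on chromosome 1, GSTU23 was lower with 3B7N in wild type and its neighbours differed by -0.29, -0.51 and 0.19. GSTU25 differed in its interaction (1.15) while its neighbours GSTU24 and GSTU26 stood at 0.01 and 0.03. In the row of GSTF7, GSTF6, GSTF5 and GSTF4, the differences with 3B7N in that order were 0.90, 1.39, 1.14 and -0.72 in cry1cry2 and 0.84, 1.38, 0.44 and -0.38 in wild type. GSTF5 was dim, with 0 of 3 wild-type DMSO arrays well above background. The pair GSTU18 and GSTU17 differed in sign between the genotypes on DMSO, at -1.32 and 0.59.

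**Figure D4:**
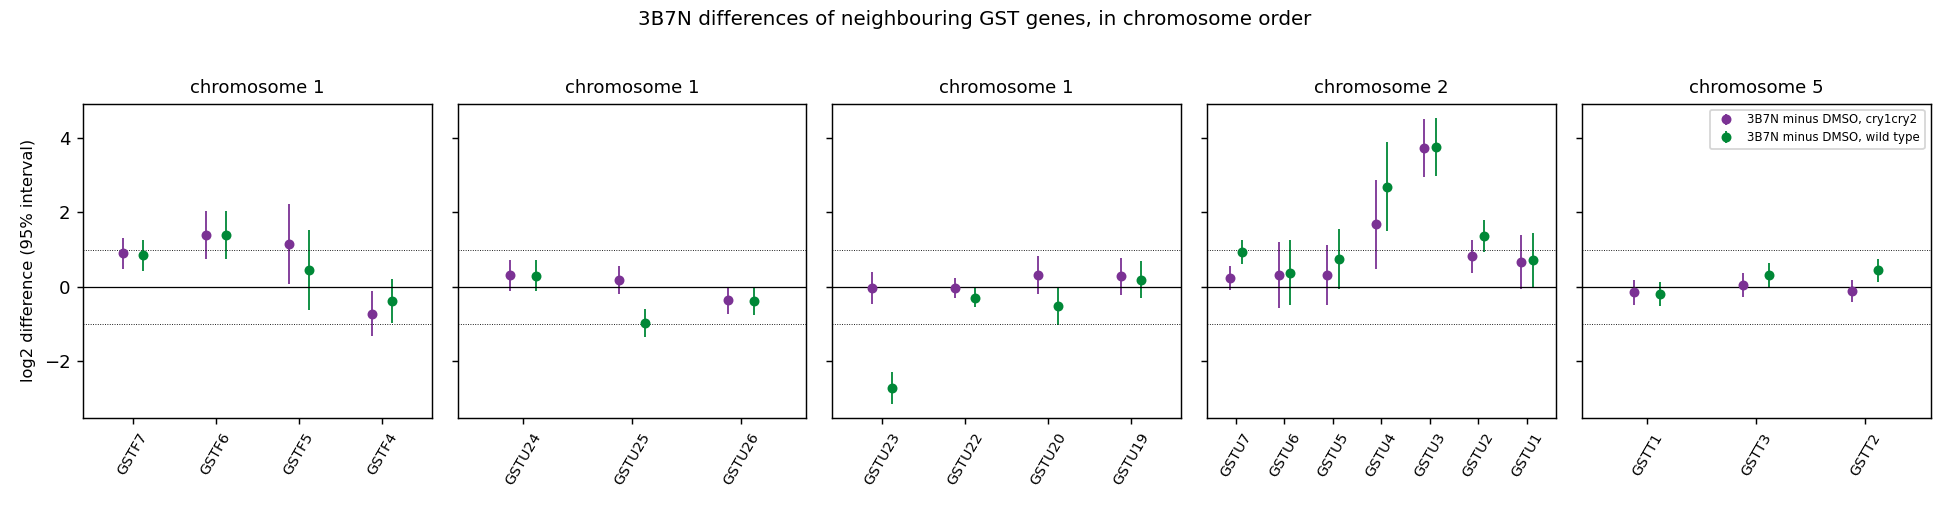
Log2 difference with 3B7N (3B7N minus DMSO) for GST genes that lie next to each other, in the order of the genes on the chromosome, with points for cry1cry2 left of points for wild type and bars for the 95% interval. Rows with at least 3 members are shown, without GSTU21, and dotted lines mark a difference of 1. In the row on chromosome 2 all points lie above 0, and those of GSTU3 (3.72 in cry1cry2 and 3.75 in wild type) rest on DMSO signals mostly not well above background.

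Beyond these genes, 29 of the 44 tested members were called in none of the 4 pairwise comparisons. The matching share of all genes was not counted, so this number is not read as a trait of the family. The spread between arrays of a group had a median SD of 0.27 over the members, beside 0.23 over all genes, and ran from 0.09 to 0.90. GSTF9 had the lowest spread and differed by -0.28 with 3B7N in cry1cry2 and by -0.45 in wild type (limma adjusted p = 0.00924). Well above background on all arrays in all 4 groups were 37 members, in 3 groups 4, in 2 groups GSTU3 and GSTL1, and in 1 group GSTF5, so members of the last kinds entered the test through the groups where they were brighter. Probe choice decided calls for GSTF8 on 3B7N and GSTU19 on DMSO between the genotypes, as given above, and for GSTU17: its brightest probe differed by -0.58 with 3B7N in cry1cry2, and another fell by 1.08 there (limma adjusted p = 0.0122).

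Genes of glutathione supply and use were read beside the family. In wild type 3B7N went with higher CYP81D11 (2.06 ± 0.25, limma adjusted p = 0.000109), a cytochrome P450 target of the SCL14 and TGA detoxification factors, the 1 gene of 10 on that list that was called. ABCC14, a transporter of the family that moves conjugates into vacuoles, was higher too (1.25 ± 0.16, limma adjusted p = 0.000174), 1 of 13 genes of conjugate transport and breakdown. Of 8 glutathione peroxidase-like genes, GPX7, which codes for a plastid protein, was lower in wild type (fitted difference -3.14 ± 0.36, limma adjusted p = 6.64e-05, with 1 of 3 wild-type 3B7N arrays well above background). Of 11 genes of glutathione synthesis and reduction 0 were called, and 3 had an unadjusted p under 0.05 by limma. Beside these wild-type counts, 15% of all genes were called and 49.3% had an unadjusted p under 0.05. In cry1cry2, GGCT2;1, which degrades glutathione, was lower with 3B7N (-2.30 ± 0.40, limma adjusted p = 0.00577). No other gene of these lists was called by limma there, beside 3.74% of all genes called. An unadjusted p under 0.05 was found for 3, 1, 3 and 2 genes on the lists of synthesis and reduction, peroxidases, transport and breakdown, and TGA factors, beside 22.3% of all genes.

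More of these genes were called between genotypes on DMSO, as over all genes (19%, beside 15% with 3B7N in wild type). Lower in cry1cry2 were DHAR3 (-1.59), GR2 (-1.18) and CLT2 (-1.16), a plastid dehydroascorbate reductase, a plastid glutathione reductase and a plastid thiol transporter, 3 of 11 on their list. GPX1 (-1.31), a plastid peroxidase, and GGCT2;2 (-1.33) were lower as well. GPX7 was also called lower, with a fitted difference of -5.26 that rests on a cry1cry2 DMSO group well above background on 1 of 3 arrays. GGCT2;1 was at least 4.4-fold higher, with a fitted difference of 2.75 (limma adjusted p = 0.000217), and the factor gene TGA7 was higher by 1.15. On 3B7N, TGA7 (1.27) and TGA4 (1.07) were higher in cry1cry2, and GPX1 (-1.29) was lower, beside 7.28% of all genes called. GPX7 was called lower there too, but it was well above background on 2 of 3 cry1cry2 and 1 of 3 wild-type arrays, so its difference is not read.

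Markers of tissue were called in the same comparisons, apart from 3B7N in cry1cry2, where no marker passed the thresholds. All 6 green tissue genes were called lower in cry1cry2 on DMSO, beside 11.4% of all genes. On 3B7N all 6 differences were below 0 and 4 were called lower, beside 3.27% of all genes. The array means were 3.497 to 3.86 in cry1cry2 on 3B7N, 2.90 to 3.49 in cry1cry2 on DMSO, 4.61 to 5.18 in 3B7N-treated wild type and 4.69 to 4.96 in wild type on DMSO. Of 12 root genes, 4 were called higher and 0 lower with 3B7N in wild type, beside 5.89% and 9.09% of all genes. Their differences ran from -0.84 to 2.40, with 8 of 12 above 0. The wild-type array means ran from -0.65 to -0.47 on 3B7N and from -1.20 to -1.09 on DMSO. In cry1cry2 the root means were -1.37 to -0.87 on 3B7N and -1.35 to -1.03 on DMSO. There 0 of 12 were called, beside 3.74% of all genes, and 2 had an unadjusted p under 0.05 by limma, beside 22.3%. Between genotypes 2 root genes were called lower in cry1cry2 on 3B7N, beside 3.27% of all genes. On DMSO 4 were called higher and 3 lower, beside 7.64% and 11.4%. Of 5 seed genes EM1 was higher with 3B7N in wild type (3.46), where the array means spread from -2.10 to 1.01 on 3B7N and from -4.04 to -0.14 on DMSO, and in cry1cry2 from -2.41 to -1.17 on 3B7N and from -2.69 to -0.43 on DMSO. All markers were above background on some arrays. The part of these tissue differences in the GST values was not tested.

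The authors' deposited table gives fold changes without a sign and corrected p-values for 3B7N in each genotype. It held 9 probes of 8 members among 3453 entries for wild type, and 2 probes of members among 577 entries for cry1cry2. In the authors' deposited table the wild-type folds were 6.72 for GSTU23, 3.68 for GSTF3, 3.49 for GSTL2, 3.47 and 2.55 for GSTF6, 2.51 for GSTU2, 2.13 for GSTU28, 2.13 for GSTU11 and 2 for GSTU25. For cry1cry2 the authors' deposited table listed GSTF6 at 2.64 and a GSTU17 probe at 2.09. GSTU3, GSTU4, GSTU12 and GSTF14, called here in wild type, were not among its wild-type probes. GSTU3 and GSTF13, called here in cry1cry2, were not among its cry1cry2 probes. GSTU25 was listed there for wild type but not called here.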

How the data were processed

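Total RNA of 12 seedling samples, 3 in each of 4 groups named by the labels, was hybridised to single-colour arrays labelled with Cy3. The deposited spot intensities, per the file headers, came from Agilent Feature Extraction 10.7.3.1, whose processed signal was background-subtracted and spatially detrended, with no scaling between arrays. The authors' deposited table held fold values without a sign and corrected p-values for the 2 chemical contrasts, with scaling and correction not given in the sources used here.

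Control spots and outlier spots were left out, spots of one probe were averaged, and log2 signals were set against the 75th percentile of each array. Of 43603 probes, 34348 were matched to a gene through RefSeq accessions and 9255 were not. A probe was kept where some group had it well above background on each of its 3 arrays (28504 with a gene), and the brightest kept probe stood for its gene, which gave 20487 genes. No spot was saturated (0 on all arrays). The array number limits the precision. A single fit of 4 group means (limma 3.58.1 in R 4.3.3, tested on simulated data) gave 5 contrasts, with Benjamini-Hochberg adjustment over all genes. "At least" folds set the brighter group's mean against the dim group's detection level on each array. Rows of neighbouring genes had at most 2 other protein-coding genes between members.

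Per-array values are given for members called in any contrast, other members by range, and members of counts of 5 or fewer by name, apart from root markers, 1 of which is not reported here. GSTs with well-known roles that were not called were named after their values were seen. The members, gene lists and markers were chosen with earlier results of these data known. Alternatives were other scalings, normexp (offset 50) on the median signals since the mean signals were not in the columns used, other filters, array weights, mean of probes, slide and replicate blocks, within-slide fits and leaving out arrays. Promoter motifs and protein identities were not analysed here.

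Replicate numbers occur in all groups. Deviations of same-numbered samples from their group means correlated at -0.325 to 0.358, with 6 of 18 above 0.1, so the numbers were not taken as pairs.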

Additional observations from a re-analysis of the deposited data

Results flagged for a closer look

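For 9 members the effect of 3B7N differed between the genotypes by the test of that difference in the fit (limma, adjusted p under 0.05), given as the change in cry1cry2 minus the change in wild type. That is 20.5% of the members, beside 29.9% of all genes at the same threshold, so it is not particular to the family. The difference was 3.29 for GSTF14 (adjusted p = 0.00227), 2.687 for GSTU23 (8.27e-05), 2.575 for GSTL2 (2.93e-05), 2.199 for GSTF13 (0.00418), 1.637 for GSTU28 (0.00129) and 1.153 for GSTU25 (0.00462). It was -1.879 for GSTF3 (adjusted p = 0.000245). Under the fold threshold were GSTZ1, the tyrosine breakdown gene, at -0.894 (adjusted p = 0.018) and GSTU7 at -0.699 (adjusted p = 0.0256). GSTZ1 differed with 3B7N by -0.29 in cry1cry2 and 0.61 in wild type, and GSTU7 by 0.24 in cry1cry2 and 0.94 in wild type.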

How the results depend on the processing

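Counts of called members were within 1.5 times of the value reported in 165 of 184 alternative counts. Higher members with 3B7N in cry1cry2 numbered 3 as reported and 1 with normexp, with slide as a block and within slide 3, and lower members with 3B7N in wild type 4 as reported and 2 with normexp. Between genotypes on 3B7N the 4 higher members became 2 with normexp, 0 with slide as a block and 2 without the 2 arrays of lowest and highest 75th percentile (chosen after seeing the data), and the 0 lower members became 1 with the mean of probes and 2 with median scaling. On DMSO 2 higher and 3 lower members were called with slide as a block, against 7 and 6. The interaction count was 2 higher with normexp, against 6, and 2 lower with median scaling and with slide as a block, against 1. GSTF13 with 3B7N in cry1cry2 turned from 1.40 to -0.057 with normexp. The cause of these changes was not tested.

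Leaving out 1 array gave 1 to 4 higher and 0 to 0 lower members with 3B7N in cry1cry2, and 5 to 8 higher and 3 to 6 lower in wild type. Between genotypes it gave 2 to 6 higher and 0 to 1 lower members on 3B7N, and 6 to 10 higher and 6 to 8 lower on DMSO. The interaction gave 6 to 7 higher and 1 to 2 lower, the 2 without wild-type DMSO array 3 or cry1cry2 3B7N array 3. With the replicate block the higher and lower counts were 3 and 0 for 3B7N in cry1cry2, 6 and 4 in wild type, 5 and 0 between genotypes on 3B7N, 7 and 6 on DMSO, and 6 and 1 for the interaction. The block ended the call of GSTU11 with 3B7N in wild type (adjusted p = 0.0511) and added GSTF14 between genotypes on 3B7N (1.20, adjusted p = 0.0223).

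Over all genes, calls with 3B7N in cry1cry2 numbered 767 as reported, 323 with normexp, 308 with slide as a block, 224 within slide 3 and 443 without cry1cry2 3B7N array 1. Those in wild type numbered 3069, and 1625 with normexp. Between genotypes they numbered 1492 on 3B7N, against 570 with normexp, 2690 without a filter and 46 with slide as a block, and 3895 on DMSO, against 2460 with normexp. The interaction had 3816, and 2030 with normexp. Scaling and background correction moved the all-gene median by more than 0.1. Median scaling moved it to 0.077 for 3B7N in wild type (reported -0.055), -0.079 between genotypes on 3B7N (0.054) and -0.062 for the interaction (0.074). Normexp moved it to -0.07 for 3B7N in cry1cry2 (0.037), -0.106 between genotypes on 3B7N and -0.142 for the interaction. Dim members, GSTU3, GSTU4, GSTU12, GSTF13, GSTF14, GSTL1 and GSTF5, are limited by their signal over background.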
